A study of Rattus norvegicus with 80 samples.

Results

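The 5 genes described here are the proliferation genes Mki67 (ENSRNOG00000028137), Top2a (ENSRNOG00000053047), Cdk1 (ENSRNOG00000000632) and Pcna (ENSRNOG00000021264), and the cyclin D1 gene Ccnd1 (ENSRNOG00000020918). They were chosen by name, as 5 of the 32883 gene identifiers counted by RNA sequencing in 80 rat libraries. The libraries form 19 groups across 5 tissues, taken from wildtype animals and 3 Nf1-mutated lines whose names, IF, PS and IFPS, the labels leave unexplained. Whole mammary pads, the gland with its fat and stroma, numbered 3 in the IF line and 6 each in wildtype, IFPS and PS. Epithelial cells of the gland (MECs), fibroblasts and mature adipocytes came from 3 samples of wildtype and 3 of each line, and primary tumors from 9 PS, 9 IFPS and 5 IF samples. There were no wildtype tumors. Pads, tumors and adipocytes were extracted directly, and MECs and fibroblasts after culture in plates to 90-100% confluency, so that culture and cell type cannot be told apart. The series text calls the normal cell types flow sorted. It states neither the mutations, the age nor the sex of the animals, nor whether libraries of a group came from separate animals, so p-values measure the spread between libraries, part of which may be technical.

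Nf1 encodes neurofibromin, which switches Ras off, and Ras acting through the kinases MEK and ERK is a known inducer of cyclin D1. Cyclin D1 binds the kinases CDK4 and CDK6 in G1 phase, and together they phosphorylate the retinoblastoma protein and so release E2F transcription factors, which turn on genes of DNA replication. Pcna encodes the sliding clamp of the replication polymerases, which also serves DNA repair in cells that do not divide. Top2a encodes topoisomerase II alpha, which untangles DNA strands in S phase and mitosis, Cdk1 the kinase that drives entry into mitosis, and Mki67 the Ki-67 antigen, a surface coat of mitotic chromosomes used in pathology to count dividing cells. Transcription of Mki67, Top2a and Cdk1 peaks late in the cell cycle and is known to use the cell cycle genes homology region (CHR) and CCAAT boxes near the start site. The transcript of Ccnd1 responds to growth signals and can be high in cells that are not dividing.

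Over the 19 groups Mki67, Top2a and Cdk1 moved together and Pcna moved less. The stretches upstream of the start are shown for these 4 genes. They are the 250 bases before the start of each gene in RefSeq, build GRCr8, matched by symbol (4 of the 5 genes had an entry; Ccnd1 did not), read 5′ to 3′ on the gene's strand. Capitals mark matches, on either strand, to the CHR (TTTGAA), the CCAAT box (CCAAT, which reads ATTGG on the opposite strand) and an E2F site (TTTCCCGC, TTTCGCGC, TTTGCCGC or TTTGGCGC).
Mki67 (chr1:199952594-199952843, minus strand): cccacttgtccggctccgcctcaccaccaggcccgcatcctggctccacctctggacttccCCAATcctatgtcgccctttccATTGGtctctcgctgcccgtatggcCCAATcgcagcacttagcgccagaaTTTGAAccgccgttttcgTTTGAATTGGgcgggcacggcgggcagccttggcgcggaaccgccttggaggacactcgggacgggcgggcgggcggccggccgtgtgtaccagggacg
Top2a (chr10:84473094-84473343, minus strand): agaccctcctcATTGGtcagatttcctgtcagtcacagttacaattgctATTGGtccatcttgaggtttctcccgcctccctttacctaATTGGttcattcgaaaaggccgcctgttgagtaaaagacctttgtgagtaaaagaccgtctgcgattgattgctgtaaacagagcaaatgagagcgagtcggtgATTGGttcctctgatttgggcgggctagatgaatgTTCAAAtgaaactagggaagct
Cdk1 (chr20:19265043-19265292, plus strand): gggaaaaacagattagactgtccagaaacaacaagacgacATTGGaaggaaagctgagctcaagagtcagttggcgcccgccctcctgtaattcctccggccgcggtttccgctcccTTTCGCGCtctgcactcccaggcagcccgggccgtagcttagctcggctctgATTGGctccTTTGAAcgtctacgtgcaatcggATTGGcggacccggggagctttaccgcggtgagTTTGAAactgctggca
Pcna (chr3:139955821-139956070, minus strand): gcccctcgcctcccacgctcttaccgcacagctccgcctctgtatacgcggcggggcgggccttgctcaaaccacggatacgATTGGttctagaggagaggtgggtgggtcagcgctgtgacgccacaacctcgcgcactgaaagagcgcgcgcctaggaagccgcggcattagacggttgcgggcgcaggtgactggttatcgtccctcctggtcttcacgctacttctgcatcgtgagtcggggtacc

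Mki67 held 2 CHR matches, which begin at positions -117 and -99 counted from the start, and 4 CCAAT boxes, 1 of which shares its first base with the end of the second CHR. The Top2a stretch had 1 CHR match, at -22 on the opposite strand, and 4 CCAAT boxes. Cdk1 carried 2 CHR matches at -72 and -16, 3 CCAAT boxes, and the single E2F match of the set, TTTCGCGC at -133. Upstream of Pcna lay 1 CCAAT box and no CHR or E2F match in this window. Of 33469 RefSeq windows of the same length, 16.2% held a CHR match, 34.0% a CCAAT box and 1.73% one of the E2F spellings, so single matches of the first 2 kinds are common. How often a window holds several matches was not computed. The matches describe the letters only. The GC content of the windows was 66% for Mki67, 45.6% for Top2a, 57.6% for Cdk1 and 63.6% for Pcna.

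**Figure D1:**
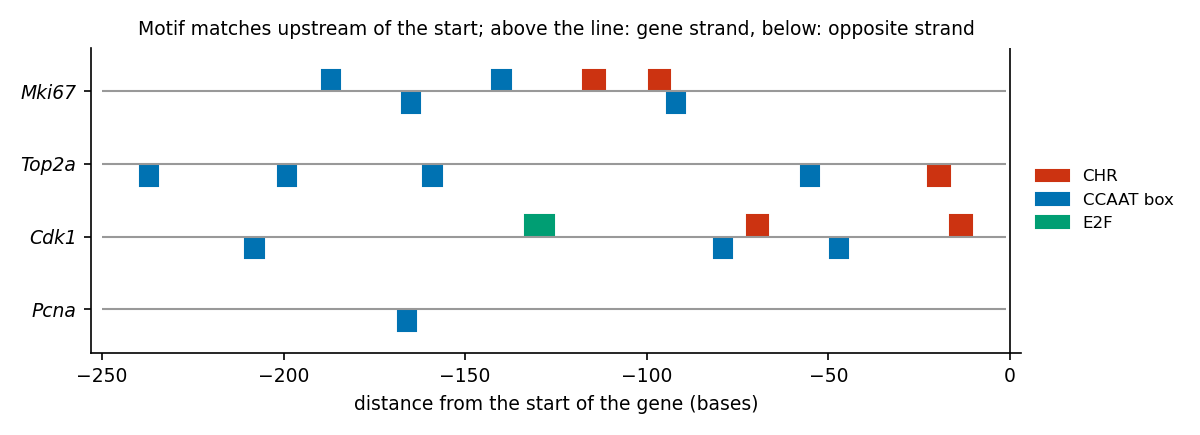
Matches to the CHR, the CCAAT box and the E2F site in the 250 bases before the start of Mki67, Top2a, Cdk1 and Pcna; the horizontal axis is the distance from the start in bases, and boxes above and below each line lie on the gene strand and the opposite strand. Mki67, Top2a and Cdk1 each have CHR matches and 3 or 4 CCAAT boxes, and Pcna has 1 CCAAT box.

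Libraries held 17.3 to 37.3 M counts (M, mega, as in CPM) and the median library 26.3 M counts. Levels are given as CPM, counts per M counts of the library, after TMM scaling over all 80 libraries; CPM is not scaled to gene length, so levels are compared within a gene only. A difference is a log2 fold change from the quasi-likelihood test of edgeR, and passed at a Benjamini-Hochberg adjusted p under 0.05 over all genes of the fit. Where libraries of 2 groups are said not to overlap, the share of all genes without overlap was not computed. Since identifiers are not paired with symbols here, named cell type markers were not analysed, and makeup is described by scores, the mean log2 CPM of genes at least 4-fold higher in one wildtype cell type than in both others (402 MEC, 713 adipocyte and 173 fibroblast genes, the 5 genes left out). By these scores each cell library stood highest for its own label. For the wildtype libraries this follows from how the genes were chosen. In 3 of the 9 IFPS tumors, replicates 6, 8 and 9, the MEC-enriched score was 2.64, 0.87 and 0.29, under the 3.12 of the lowest pad, while the other 20 tumors lay between 4.08 and 5.35. IF adipocytes had MEC-enriched scores of 1.26 to 3.76, against at most 0.74 in the other adipocytes. In pads and tumors, fewer cells of a type and less RNA per cell cannot be told apart.

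Mki67, Top2a and Cdk1 had their highest group means in cultured MECs and their lowest in adipocytes, and Ccnd1 had its highest in tumors. Mki67 ran from 160.2 to 250.4 CPM in the 12 MEC libraries, from 70.1 to 221.4 in the 21 pads, from 48.4 to 223.8 in the 12 fibroblast libraries and from 3.74 to 264.7 in the 23 tumors, against 2.01 to 26.6 in the 12 adipocyte libraries. All adipocytes lay below all pads, MECs and fibroblasts. Pcna spanned far less, from 98.1 to 128.8 CPM in MECs, 55.9 to 84.3 in pads, 52.2 to 80.8 in adipocytes and 35.8 to 65.6 in fibroblasts. Adipocytes thus kept Pcna above most fibroblasts while their Mki67 was at most 26.6 CPM. Ccnd1 lay between 145.5 and 477.5 CPM in pads, 146.4 and 275.1 in MECs, 32.8 and 160.5 in fibroblasts and 24 and 129.2 in adipocytes, and its median over the tumors was 724.9.

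In a fit of the 57 normal libraries averaged over lines, MECs exceeded fibroblasts in all 5 genes, by a log2 fold change of 1.15 ± 0.13 (SE; adjusted p = 8.35e-11) for Mki67, 1.52 for Top2a, 1.09 for Cdk1, 1.35 for Pcna and 1.66 for Ccnd1. In that comparison 73.8% of all genes tested passed, and between 73.8% and 85.2% did in the 6 comparisons of tissues, so a call there says little about these genes. MECs also exceeded adipocytes in all 5 (80.5% of genes passed), by 6.56 ± 0.17 (SE; adjusted p = 9.61e-33) for Top2a and 0.92 ± 0.06 for Pcna. Fibroblasts exceeded adipocytes in 4 (78.3% passed), among them Top2a by 5.05 and Ccnd1 by 0.51. Pcna went the other way: it was lower in fibroblasts than in adipocytes, with a log2 fold change of -0.43 ± 0.06 (SE; adjusted p = 4.16e-09). That sign was the same with RLE size factors and with DESeq2.

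On average over lines, whole pads held more Ccnd1 than any of the 3 cell types, although MECs and pads overlapped. Against pads, the log2 fold change of Ccnd1 was -0.35 ± 0.15 (SE; adjusted p = 0.0279) in MECs, -2.01 ± 0.15 in fibroblasts and -2.52 ± 0.16 in adipocytes. The other 4 genes were higher in MECs than in pads (81.5% of genes passed), from 0.74 for Pcna to 1.37 for Cdk1. Of fibroblasts against pads (84.6% passed), Pcna at -0.61, Mki67 at -0.27 ± 0.13 (SE; adjusted p = 0.0436) and Ccnd1 were lower, and Top2a at -0.24 and Cdk1 at 0.28 did not pass. All 5 were lower in adipocytes than in pads (85.2% passed), Top2a by the widest margin among them at -5.29 and Pcna at -0.18 ± 0.06. The Ccnd1 difference between MECs and pads passed in 31 of 33 fits that left out 1 library of either tissue, with IFPS pad 2 and PS pad 3 as the exceptions, and that of Mki67 between fibroblasts and pads in 21 of 33 and not without the filter on low counts.

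**Figure D2:**
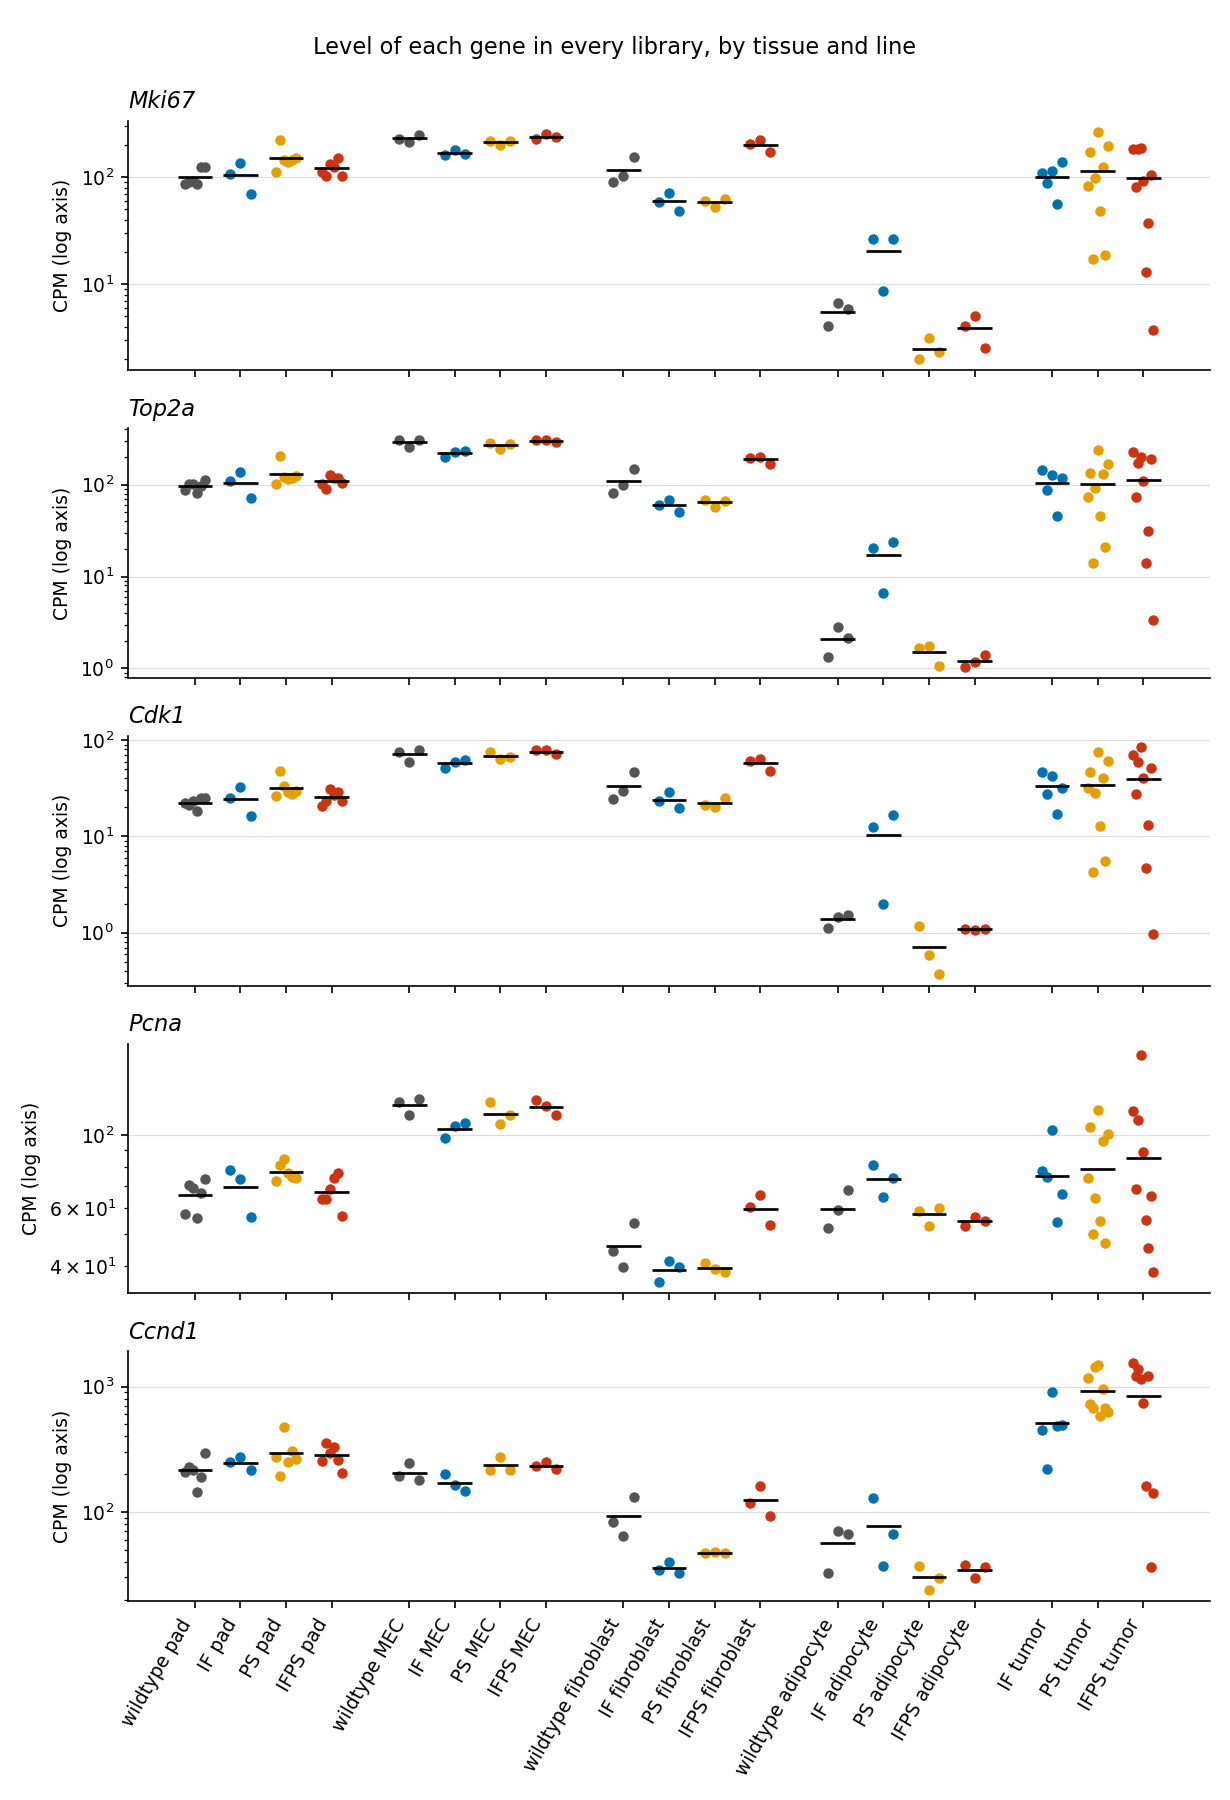
CPM of each gene (log axis, TMM scaled) in every library, grouped by tissue and line; points are libraries and bars are group means. Group means of Mki67, Top2a and Cdk1 are highest in MECs and lowest in adipocytes, with IF adipocytes above the other adipocytes, and those of Ccnd1 are highest in tumors.

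Ordered by their mean log2 CPM, most neighbouring groups of the 19 overlapped. For Mki67 the ranges of 16 of 18 neighbours overlapped, and the gaps lay around IF adipocytes, which stood below PS fibroblasts and above wildtype adipocytes. Top2a had 15 of 18 neighbours that overlapped, with a further gap between PS MECs and IF MECs. Cdk1 had 14 of 18, with gaps below IF MECs, on either side of IF adipocytes and below wildtype adipocytes. The sole gap in the order of Pcna lay between IF MECs and PS pads. For Ccnd1 the sole gap separated PS fibroblasts from IF fibroblasts, below a continuous order that began with PS, IFPS and IF tumors.

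In whole pads none of the genes passed the test in any mutated line. Mki67 was 86.5 at the lowest, 91.4 at the median and 125 at the highest over 6 wildtype pads, in CPM, and 111 at the lowest, 145 at the median and 221 at the highest over 6 PS pads. Cdk1 was 18.2 at the lowest, 22.6 at the median and 25.2 at the highest in wildtype and 26.3 at the lowest, 29.2 at the median and 47.6 at the highest in PS pads. PS pad 2 held the highest PS value of both genes. Every PS pad exceeded every wildtype pad for Cdk1, as 5 of 6 did for Mki67, Top2a and Pcna and 2 of 6 for Ccnd1. How many of all genes separate in this way was not computed. The log2 fold changes of PS against wildtype pads were 0.60 ± 0.17 (SE; adjusted p = 0.311) for Mki67, 0.51 (95% interval 0.17 to 0.86) for Cdk1, 0.43 for Top2a, 0.46 for Ccnd1 and 0.23 for Pcna. None of the 5 (0 of 5) passed with edgeR, and DESeq2 called 0, while 0.0061% of all genes tested passed. All 5 had an unadjusted p under 0.05, as did 1679 of the 16384 genes tested. The MEC-enriched score of PS pads was 3.97 to 4.55 against 3.12 to 4.36 in wildtype, and its part in these values was not tested.

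In the 6 IFPS pads Mki67 was 103 at the lowest, 117 at the median and 149.5 at the highest, in CPM. Their log2 fold changes ran from 0.03 for Pcna to 0.39 (95% interval 0.00 to 0.79) for Ccnd1. In the 3 IF pads Mki67 was 108, 135 and 70.1 CPM, and the 5 log2 fold changes lay between 0.07 and 0.12, with an interval for Mki67 of -0.37 to 0.56. By edgeR 0 of 5 genes passed in IFPS pads, 1 of them at an unadjusted p under 0.05, and 0 of 5 in IF pads, 0 of them at that level, and DESeq2 called 0 in both. Over all genes 0% passed in IFPS and 0% in IF pads, and 1297 and 306 of the 16384 genes tested had an unadjusted p under 0.05.

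Cultured MECs of the IF line had less Mki67 and Top2a than those of wildtype and IFPS. Mki67 was 229, 211 and 249 CPM in wildtype, 160.2, 177 and 165 in IF, 219, 200.2 and 217 in PS and 228, 250.4 and 237 in IFPS MECs. All 3 IF libraries lay below all others. Top2a was 308, 260.4 and 311 in wildtype, 202, 229 and 230.4 in IF, 288, 248 and 279.7 in PS and 306, 310.4 and 292 in IFPS MECs. Here too the IF libraries were the lowest of the 12. Against wildtype, Mki67 changed in IF MECs by a log2 fold change of -0.43 ± 0.07 (SE; adjusted p = 0.0164) and Top2a by -0.39 ± 0.08 (SE; adjusted p = 0.0494). These 2 of 5 genes stand beside 0.817% of all genes that passed. Cdk1 at -0.29 (95% interval -0.51 to -0.07), Pcna at -0.21 and Ccnd1 at -0.25 did not pass.

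Both calls in IF MECs passed with DESeq2 but were not stable with edgeR. Top2a did not pass with RLE size factors (adjusted p = 0.0507). Leaving out 1 of the 6 libraries at a time kept the call in 2 of 6 fits for Mki67 (adjusted p 0.0111 to 0.0782) and in 1 of 6 for Top2a (0.0172 to 0.162), and neither passed in a fit of the 2 groups alone. IF MECs had 22.7 to 24.6 M counts against 29.7 to 31.6 M counts in wildtype and 21.3 to 24.4 M counts in IFPS, and the part of depth in these values was not tested. Against IF, IFPS MECs were higher in Mki67 by 0.50 ± 0.07 (SE; adjusted p = 0.0105) and in Top2a by 0.45 ± 0.08 (SE; adjusted p = 0.0383), beside 0.742% of all genes. Mki67 passed in 4 of 6 fits with a library left out (up to 0.0586) and Top2a in 0 of 6 (0.0683 to 0.169). All 5 genes were without overlap between these groups, Ccnd1 among them with 199, 165 and 146 CPM in IF and 230.5, 251 and 221 in IFPS MECs, a log2 difference of 0.45 ± 0.14 (SE; adjusted p = 0.17) that did not pass. The share of all genes without overlap between these groups was not computed.

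No gene passed between PS or IFPS MECs and wildtype. In either line edgeR called 0 of 5 genes, 0 at an unadjusted p under 0.05, and DESeq2 called 0, while 2.36% of all genes passed in PS and 0.374% in IFPS MECs. The log2 fold change of Mki67 was -0.11 (95% interval -0.25 to 0.03) in PS and 0.07 (-0.07 to 0.21) in IFPS MECs. For Ccnd1 it was 0.21 (-0.11 to 0.53) and 0.20 (-0.11 to 0.52). Between PS and IF MECs 0 of 5 genes passed with edgeR, beside 0.0681% of all genes. Mki67, higher in PS by 0.32 (edgeR adjusted p = 0.0955), passed there with DESeq2 (adjusted p = 0.00342).

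In fibroblasts the IF and PS lines lay below wildtype in Mki67, Top2a and Ccnd1, and IFPS lay above both in all 5 genes. Mki67 was 90.2, 102 and 156 CPM in wildtype, 58.6, 70.7 and 48.4 in IF, 59.9, 52.8 and 62.1 in PS and 202, 224 and 172 in IFPS fibroblasts. The 3 levels did not overlap: IF and PS lay together at the bottom, wildtype between, and IFPS on top. Ccnd1 was 83.0, 64.2 and 130.4 in wildtype, 34.4, 40.04 and 32.8 in IF, 47.0, 48.3 and 47.2 in PS and 119, 161 and 93.3 in IFPS fibroblasts. For Ccnd1 the wildtype and IFPS libraries overlapped, and all IF and PS libraries lay below both. Replicate 3 was the highest of the wildtype libraries for all 5 genes.

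The comparisons of IF, PS and IFPS fibroblasts with wildtype share the 3 wildtype libraries. Against them, Mki67 fell by 0.99 on the log2 scale in IF (SE 0.19, adjusted p = 0.0191) and by 1.04 in PS (SE 0.19, adjusted p = 0.00657). Ccnd1 fell by 1.39 in IF (adjusted p = 0.015) and by 1.01 in PS (adjusted p = 0.0151). Top2a, the third gene that passed in both lines, changed by -0.89 in IF and -0.81 in PS. Cdk1 at -0.65 ± 0.22 (SE; adjusted p = 0.0532) in PS and -0.51 in IF, and Pcna at -0.26 and -0.26, did not pass. The 3 of 5 genes stand beside 7.66% of all genes in IF and 21.7% in PS fibroblasts.

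The IF calls passed with DESeq2 but were not stable to the choice of libraries with edgeR. With 1 library left out Mki67 and Ccnd1 passed in 4 of 6 fits and Top2a in 2 of 6, with adjusted p up to 0.0791, and none of the 3 passed in a fit of IF and wildtype alone. In PS fibroblasts Mki67 passed in all 6 such fits and Top2a and Ccnd1 in 5 of 6, the exception in both being the fit without PS replicate 2. Top2a was also lost in a fit of PS and wildtype alone (adjusted p = 0.0541). PS fibroblast libraries were the deepest of the fibroblasts, with 34.6 to 37.3 M counts against 24.4 to 27.4 M counts in wildtype.

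IFPS fibroblasts had higher levels than wildtype in every library for Mki67, Top2a and Cdk1, but no gene passed. Their log2 fold changes against wildtype were 0.77 ± 0.19 (SE; adjusted p = 0.0897) for Mki67, 0.78 ± 0.19 (SE; adjusted p = 0.0879) for Top2a and 0.77 ± 0.21 (SE; adjusted p = 0.103) for Cdk1. With edgeR 0 of 5 passed, beside 0.0648% of all genes. An unadjusted p under 0.05 was found for 4 of the 5, as for 2965 of the 13879 genes tested. DESeq2 called 4, and its share over all genes is not given here. Without wildtype replicate 3 all 5 passed in edgeR, Mki67 with a log2 fold change of 1.03 (adjusted p = 0.00579) and Ccnd1 with 0.73 (adjusted p = 0.0396). The share of all genes that passed in that fit is not given here. The calls of this comparison thus changed both with 1 library and with the tool.

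Between the mutated lines the difference was larger and did not depend on a library. All 5 genes were higher in IFPS than in PS fibroblasts, Mki67 by 1.80 ± 0.19 (SE; adjusted p = 0.00017) or 3.49-fold, Top2a by 1.59, Cdk1 by 1.41, Ccnd1 by 1.41 ± 0.24 (SE; adjusted p = 0.00107) or 2.66-fold, and Pcna by 0.62. The same 5 of 5 held against IF fibroblasts, with Mki67 at 1.75 ± 0.19 and Ccnd1 at 1.80 ± 0.24 (SE; adjusted p = 0.000823). No library of IFPS overlapped with PS or IF for any of the 5 genes, and all 10 calls stayed in every fit with a library left out and every other setting run. The background of calls was broad, at 40.5% of all genes against PS and 31.4% against IF, and the share of all genes without overlap was not computed. MEC-enriched scores were 1.06 to 1.76 in IFPS against 0.66 to 1.28 in PS and 0.89 to 1.12 in IF fibroblasts, and the part of this in the result was not tested.

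No gene passed between PS and IF fibroblasts in the fit of all fibroblasts. With edgeR 0 of 5 genes passed, 0 at an unadjusted p under 0.05, and DESeq2 called 0, beside 4.78% of all genes. The 95% interval of the PS minus IF difference was -0.47 to 0.37 for Mki67 and -0.14 to 0.91 for Ccnd1. The Ccnd1 libraries did not overlap, with all 3 PS libraries above all 3 IF libraries, and in a fit of the 2 groups alone Ccnd1 passed at 0.37 (adjusted p = 0.0416).

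Adipocytes of wildtype, PS and IFPS were near the floor for the 3 late genes, and IF adipocytes stood above them. Top2a was 1.32, 2.79 and 2.16 CPM in wildtype, 1.65, 1.76 and 1.06 in PS, 1.05, 1.16 and 1.39 in IFPS and 20.6, 6.62 and 23.7 in IF adipocytes. The IF values rest on 128 to 515 counts a library and the wildtype values on 27 to 59. IF replicate 2 was the lowest of its group and still above all 9 other adipocyte libraries. Cdk1 was 1.13, 1.47 and 1.54 in wildtype and 12.4, 1.97 and 16.5 in IF, and Mki67 4.11, 6.72 and 5.85 in wildtype and 26.2, 8.64 and 26.6 in IF adipocytes. Replicate 2 was again the lowest of the IF libraries for both.

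Mki67, Top2a, Cdk1 and Pcna were higher in IF than in wildtype adipocytes. The log2 fold change was 3.07 ± 0.45 (SE; adjusted p = 0.000573) for Top2a, 2.95 ± 0.63 (SE; adjusted p = 0.00359) for Cdk1 and 1.93 ± 0.41 (SE; adjusted p = 0.00358) for Mki67, and these 3 passed with any library left out. Pcna, at 52.2, 59.2 and 68.1 CPM in wildtype and 80.8, 65.0 and 74.1 in IF, differed by 0.34 ± 0.12 (SE; adjusted p = 0.0316), a call kept in 2 of 6 such fits and lost without the filter on low counts and in a fit of the 2 groups alone. Ccnd1, at 32.3, 70.7 and 66.9 in wildtype and 129, 36.8 and 67.3 in IF, differed by 0.51 ± 0.41 (SE; adjusted p = 0.32), with overlap. In this comparison 48.2% of all genes passed, beside the 4 of 5 genes here. The MEC-enriched score moved with the IF libraries, at 3.76, 1.26 and 3.53 in replicates 1, 2 and 3 against -0.13 to 0.74 in wildtype, and so did the fibroblast-enriched score, at 3.50 to 4.13 against 2.01 to 2.33. Their part in the result was not tested.

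Against the other mutated lines IF adipocytes were higher in all 5 genes. PS adipocytes differed from IF by a log2 fold change of -3.05 for Mki67, -3.52 for Top2a and -1.38 ± 0.42 (SE; adjusted p = 0.018) for Ccnd1, and IFPS adipocytes by -2.43, -3.84 and -1.21 ± 0.42 (SE; adjusted p = 0.0302). Of all genes 52.7% passed against PS and 53% against IFPS. With 1 library left out the Ccnd1 call stayed in 3 of 6 fits against PS and 2 of 6 against IFPS, and it went in both without IF replicate 1. The IFPS call of Ccnd1 was also lost in a fit of the 2 groups alone (adjusted p = 0.0648). Pcna against PS, at -0.36 ± 0.12 (SE; adjusted p = 0.0232), stayed in 2 of 6 fits with a library left out and was lost in a fit of the 2 groups alone (adjusted p = 0.0501). No gene passed between PS or IFPS adipocytes and wildtype. With edgeR 0 of 5 genes passed in each, 1 in PS (Mki67) and 0 in IFPS had an unadjusted p under 0.05, DESeq2 called 0, and 0.378% of all genes passed in PS and 0% in IFPS. Of the 14304 genes tested, 1680 in PS and 927 in IFPS had an unadjusted p under 0.05. For Ccnd1, at 37.3, 24 and 29.6 CPM in PS and 37.4, 29.6 and 36.1 in IFPS, the 95% intervals against wildtype were -1.78 to 0.05 and -1.61 to 0.21.

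**Figure D3:**
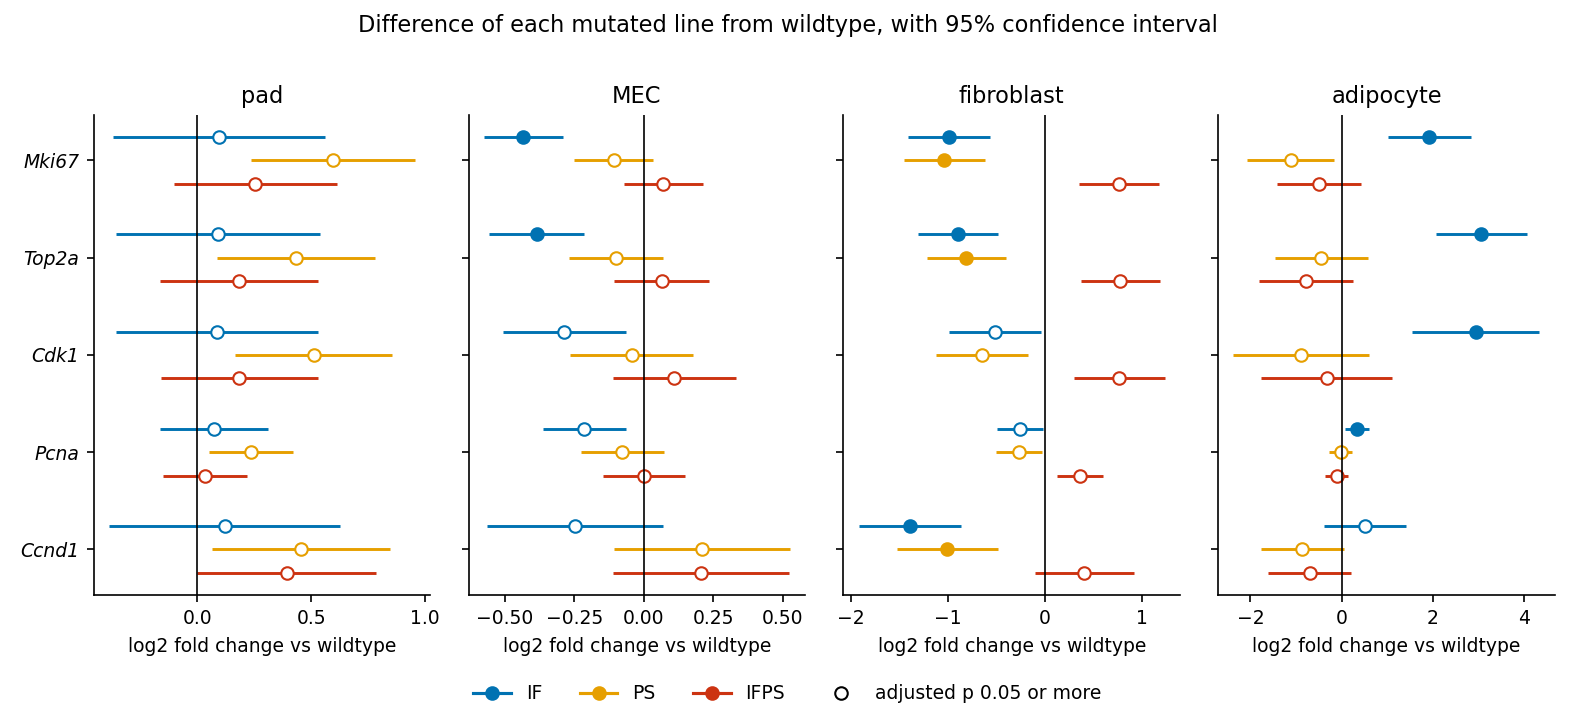
Log2 fold change of each mutated line against wildtype with its 95% confidence interval, by gene and normal tissue; filled points passed at an adjusted p under 0.05 in the edgeR fit of that tissue and open points did not. Filled points are Mki67 and Top2a in IF MECs, Mki67, Top2a and Ccnd1 in IF and PS fibroblasts, and Mki67, Top2a, Cdk1 and Pcna in IF adipocytes.

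Whether a line's difference from wildtype itself differed between cell types was tested as an interaction in the fit of the 57 normal libraries. The IF difference was greater in adipocytes than in fibroblasts for all 5 genes, from 0.54 ± 0.16 (SE; adjusted p = 0.00731) for Pcna to 3.90 ± 0.40 (SE; adjusted p = 6.72e-10) for Top2a, with 1.85 ± 0.43 (SE; adjusted p = 0.000727) for Ccnd1, beside 33% of all genes. It was greater than in MECs for 4 genes, with 3.44 ± 0.40 (SE; adjusted p = 7.88e-09) for Top2a, beside 34.1%, and Ccnd1 at 0.74 ± 0.42 (SE; adjusted p = 0.178) did not pass. The IFPS difference in adipocytes minus that in fibroblasts passed for Top2a at -1.59 ± 0.45 (SE; adjusted p = 0.0469), beside 1.99% of all genes. That call was lost with RLE size factors, without the filter on low counts and in fits of the cell libraries alone, with a replicate block on the title number or without it.

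Fibroblasts and MECs gave a call that depends on the fit. In the 57 libraries 0 of 5 genes passed with edgeR for PS (1.86% of all genes passed, 2 of the 5 genes had an unadjusted p under 0.05) and 0 for IFPS (0.00584%, 2 genes) and IF (0.216%, 1 gene), and DESeq2 called 0 in each. Of the 17126 genes tested, 2606 for PS, 1566 for IFPS and 1205 for IF had an unadjusted p under 0.05. The PS difference in fibroblasts minus that in MECs was -0.89 ± 0.36 (SE; adjusted p = 0.206) for Mki67 and -1.18 ± 0.42 (SE; adjusted p = 0.139) for Ccnd1. Same-numbered MEC and fibroblast libraries deviated together, and in a fit of those 24 libraries with the title number as a replicate block, chosen after seeing the data, the estimate for Mki67 was -0.89 ± 0.15 (adjusted p = 0.00438), for Ccnd1 -1.16 ± 0.29 (adjusted p = 0.0234) and for Top2a -0.67 ± 0.18 (adjusted p = 0.0281). The IFPS difference was 0.74 ± 0.15 for Mki67 (adjusted p = 0.0373) and 0.76 ± 0.18 for Top2a (adjusted p = 0.0455) in that fit. A fit of all 36 cell libraries with the block gave -0.86 ± 0.36 for Mki67 in PS (adjusted p = 0.179) and -1.16 ± 0.42 for Ccnd1 (adjusted p = 0.125), with 0 of 15 calls. Without the block in MECs and fibroblasts the PS calls stayed, at adjusted p 0.00982 for Mki67 and 0.0133 for Ccnd1, and the IFPS calls did not. The shares of all genes that passed in the fits of 24 and 36 libraries are not given here.

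Ccnd1 was higher in PS and IFPS tumors than in the pads of their line, and no proliferation gene passed there. Ccnd1 in the 9 PS tumors was 579 at the lowest, 725 at the median and 1479.7 at the highest CPM, against 195 at the lowest, 271 at the median and 478 at the highest in the 6 PS pads. All 9 tumors exceeded all 6 pads. In the 9 IFPS tumors Ccnd1 was 36.2 at the lowest, 1152 at the median and 1551 at the highest, against 205 at the lowest, 279 at the median and 354 at the highest in the 6 IFPS pads. The spread in IFPS was wide. Replicates 6, 8 and 9, the tumors with low MEC-enriched scores, held 162, 36.2 and 142 CPM, below every IFPS pad, while the other 6 held 745 to 1551, above every pad. The 5 IF tumors held 450.4, 221, 913, 486 and 498 against 252, 273 and 217 in the 3 IF pads. In IF, 4 of 5 tumors exceeded all pads, and replicate 2, with the lowest MEC-enriched score of the IF tumors at 4.08, lay among them.

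Against pads of the same line Ccnd1 was higher by a log2 fold change of 1.68 ± 0.48 (SE; adjusted p = 0.00703) in PS, 3.2-fold, and of 1.61 ± 0.48 (SE; adjusted p = 0.013) in IFPS, 3.04-fold. In IF it was 1.07 ± 0.66 (SE; adjusted p = 0.225), with a 95% interval of -0.26 to 2.40. Of all genes 38.9% passed in PS, 27.9% in IFPS and 23.3% in IF, and Ccnd1 was the one of the 5 that passed in PS and IFPS. Both calls stayed with any library left out, and that of IFPS was lost in a fit of the 2 groups alone (adjusted p = 0.096). They did not pass with pads of a single set of title numbers: with pads 1 to 12 the estimate was 1.56 in PS (adjusted p = 0.112) and 1.51 in IFPS (adjusted p = 0.181), and with pads 13 to 21 it was 1.82 (adjusted p = 0.0766) and 1.71 (adjusted p = 0.12). Without the 3 IFPS tumors of low MEC-enriched score, a choice made after seeing the data, the estimate was 2.14 in IFPS (adjusted p = 3.75e-07), 1.69 in PS and 1.09 in IF (adjusted p = 0.0138).

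PS tumors and PS pads differed in makeup as well as in Ccnd1. The MEC-enriched score was 4.92 to 5.35 in PS tumors against 3.97 to 4.55 in PS pads, and the adipocyte-enriched score 2.56 to 4.04 against 4.33 to 4.74. Cultured MECs had MEC-enriched scores of 5.26 to 5.73 and Ccnd1 of 146.4 to 275.1 CPM. The part of makeup in the tumor values was not tested. Against MECs of the same line, Ccnd1 was higher in PS tumors by 1.96 ± 0.71 (SE; adjusted p = 0.0245), where all 9 tumors lay above all MECs, and in IFPS tumors by 1.84 ± 0.70 (SE; adjusted p = 0.034), where 6 of 9 did. In IF it was 1.57 ± 0.73 (SE; adjusted p = 0.08), and all 5 tumors lay above the 3 MEC libraries. The background was 45.9% of all genes in PS, 44.2% in IFPS and 42.8% in IF. With 1 library left out the PS call stayed in 9 of 12 fits and the IFPS call in 8 of 12, and both went without any 1 of the 3 MEC libraries. The IFPS call also went without tumor replicate 1 and in a fit of the 2 groups alone (adjusted p up to 0.169), and the IF difference passed with DESeq2 (adjusted p = 0.0362) and in a fit of the 2 groups alone (adjusted p = 0.0142).

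**Figure D4:**
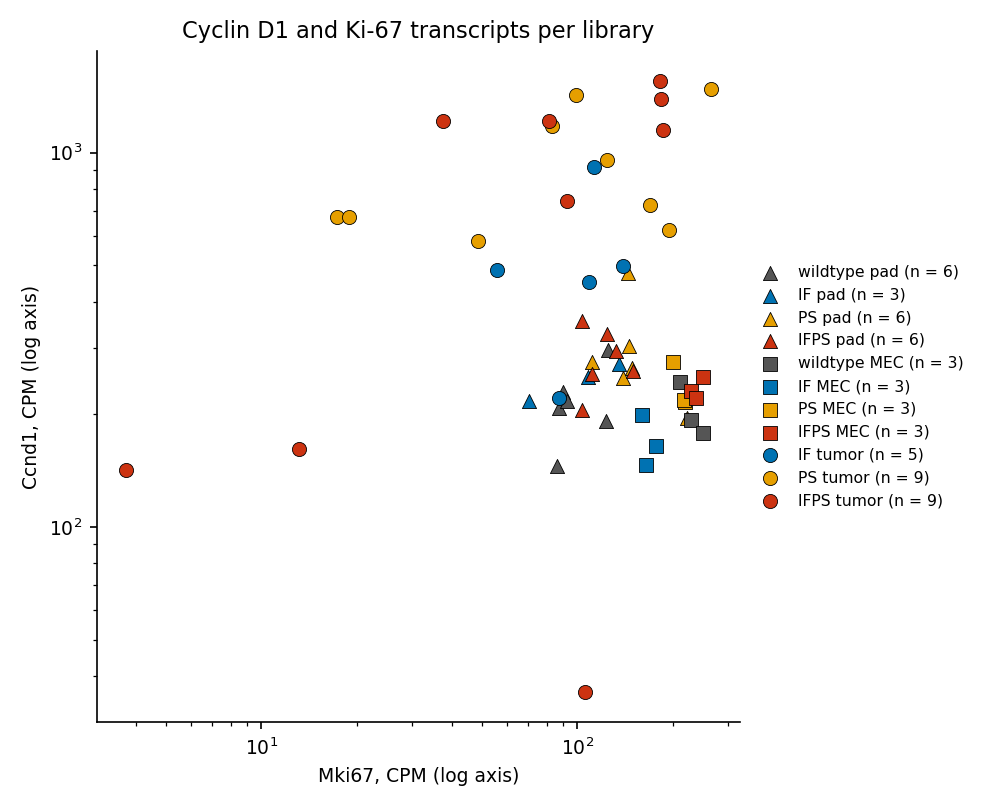
Ccnd1 against Mki67 (CPM, both axes log) in each tumor, pad and MEC library, with colors for lines and shapes for tissues. Tumors spread over a wide range of Mki67 at high Ccnd1, MECs lie at high Mki67 with Ccnd1 at or under 275.1 CPM, and 3 IFPS tumors lie below every other tumor in Ccnd1.

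The 4 proliferation genes did not pass between tumors and pads in any line, and their spread among tumors was wide. Mki67 was 17.4 at the lowest, 98.9 at the median and 265 at the highest CPM in PS tumors, 3.74 at the lowest, 92.8 at the median and 187 at the highest in IFPS tumors and 109, 87.5, 113, 55.6 and 139 in IF tumors. Below every pad lay PS tumors 3, 6 and 8 at 17.4, 48.6 and 18.9 CPM, IFPS tumors 6, 7 and 9 at 13.1, 37.6 and 3.74 CPM and IF tumor 4 at 55.6 CPM, while PS tumor 5 with 265 was the highest of all 80 libraries. Cdk1 was 4.23 at the lowest, 31.6 at the median and 75.5 at the highest in PS and 0.966 at the lowest, 40.8 at the median and 84.4 at the highest in IFPS tumors. The log2 fold change of Mki67 against pads was -0.39 (95% interval -1.45 to 0.68) in PS, -0.26 (-1.33 to 0.81) in IFPS and -0.04 (-1.52 to 1.45) in IF. For Cdk1 it was 0.11 (-1.01 to 1.24), 0.64 (-0.50 to 1.78) and 0.44 (-1.14 to 2.02). Differences within these intervals were not resolved at this spread. Of the 4 genes 0 passed with edgeR in each line, 0 had an unadjusted p under 0.05, and DESeq2 called 0; without the IFPS tumors of low MEC-enriched score Pcna passed in IFPS, at 0.64 (adjusted p = 0.0241).

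Relative to MECs of the same line, proliferation genes were lower in most tumors but did not pass. Every IFPS tumor lay below every IFPS MEC library for Mki67 and Top2a, and every IF tumor below every IF MEC library for Mki67, Top2a and Cdk1. The share of all genes without overlap was not computed. Of all genes 44.2% passed in IFPS, 42.8% in IF and 45.9% in PS. The log2 fold change of Top2a was -1.41 ± 0.70 (SE; adjusted p = 0.101) in PS, -1.42 ± 0.70 (SE; adjusted p = 0.1) in IFPS and -1.10 ± 0.81 (SE; adjusted p = 0.274) in IF. Of the 4 genes 0 passed with edgeR or DESeq2 in each line, and 0 had an unadjusted p under 0.05. In a fit of IF tumors and IF MECs alone Mki67 (adjusted p = 0.0411), Top2a (0.0225) and Cdk1 (0.0451) passed, and without the IFPS tumors of low MEC-enriched score Top2a passed in PS (0.0268).

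None of the genes passed between tumors of the 3 lines. With edgeR 0 of 5 passed between IFPS and PS, IFPS and IF, and PS and IF tumors, 0 had an unadjusted p under 0.05, and DESeq2 called 0, beside 0%, 4.25% and 2.48% of all genes. For Ccnd1 the PS minus IF difference was 0.86 (95% interval -0.39 to 2.12) and the IFPS minus IF difference 0.72 (-0.52 to 1.96); without the 3 IFPS tumors of low MEC-enriched score the latter was 1.22 (adjusted p = 0.024). The change from pad to tumor was compared between lines as an interaction, and with edgeR 0 of 5 passed for IFPS minus PS, IFPS minus IF and PS minus IF, 0 had an unadjusted p under 0.05, and DESeq2 called 0, beside 0%, 0.464% and 0.36% of all genes. The interval for Ccnd1 was -0.96 to 2.18 for PS minus IF.

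Across 9 PS tumors and across 9 IFPS tumors the 4 proliferation genes were correlated with each other. The relation of Ccnd1 to them did not pass, over 9 PS tumors and 6 of the IFPS tumors. The 5 IF tumors were too few for a correlation. Over the 9 PS tumors the 6 pairs among Mki67, Top2a, Cdk1 and Pcna had Pearson r of log2 CPM from 0.934 to 0.994 and Spearman rho from 0.95 to 1, with exact permutation p adjusted over 30 relations of 0.00023 or less for r. Without the 2 tumors farthest from the median of the first gene, r stayed between 0.939 and 0.989. Over the 9 IFPS tumors the same pairs had r from 0.816 to 0.996 and rho from 0.867 to 0.983, with adjusted exact p of at most 0.0143, and r of 0.779 to 0.976 without 2 tumors. All genes of a tumor share its library scaling and its makeup.

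Ccnd1 against Mki67 had r of 0.46 and rho of 0.40 over the 9 PS tumors (two-sided exact permutation p = 0.211 and 0.291, adjusted p = 0.423 and 0.546), and r of 0.26 without the 2 farthest tumors. PS tumors 3 and 8 held 675 and 673 CPM of Ccnd1 at a Mki67 of 17.4 and 18.9. IFPS tumors fall into 2 clusters by Ccnd1 and the MEC-enriched score. The relation was therefore computed in the 6 of the upper cluster, a choice made after seeing the data, Ccnd1 among them. Pairs of proliferation genes kept all 9 IFPS tumors, so the 2 kinds of pair cover different tumors. The relation of Ccnd1 to Mki67 over all 9 is not given here. In the 6, r was 0.31 and rho 0.03 (exact permutation p = 0.549 and 1, adjusted p = 0.755 and 1). Without 2 of the 6, r was 0.91 (exact p = 0.25). Of the 30 relations 12 passed after adjustment, all among the 4 proliferation genes. None of the 10 between a gene and the MEC-enriched score passed, over the 9 PS tumors and over the 6 IFPS tumors kept by that score. Both sets of tumors cover only a narrow range of the score, 4.92 to 5.35 in PS. IFPS tumor 8 stood apart from both patterns, with the lowest Ccnd1 of all tumors at 36.2 CPM beside a Mki67 of 106 and a Top2a of 191.

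**Figure D5:**
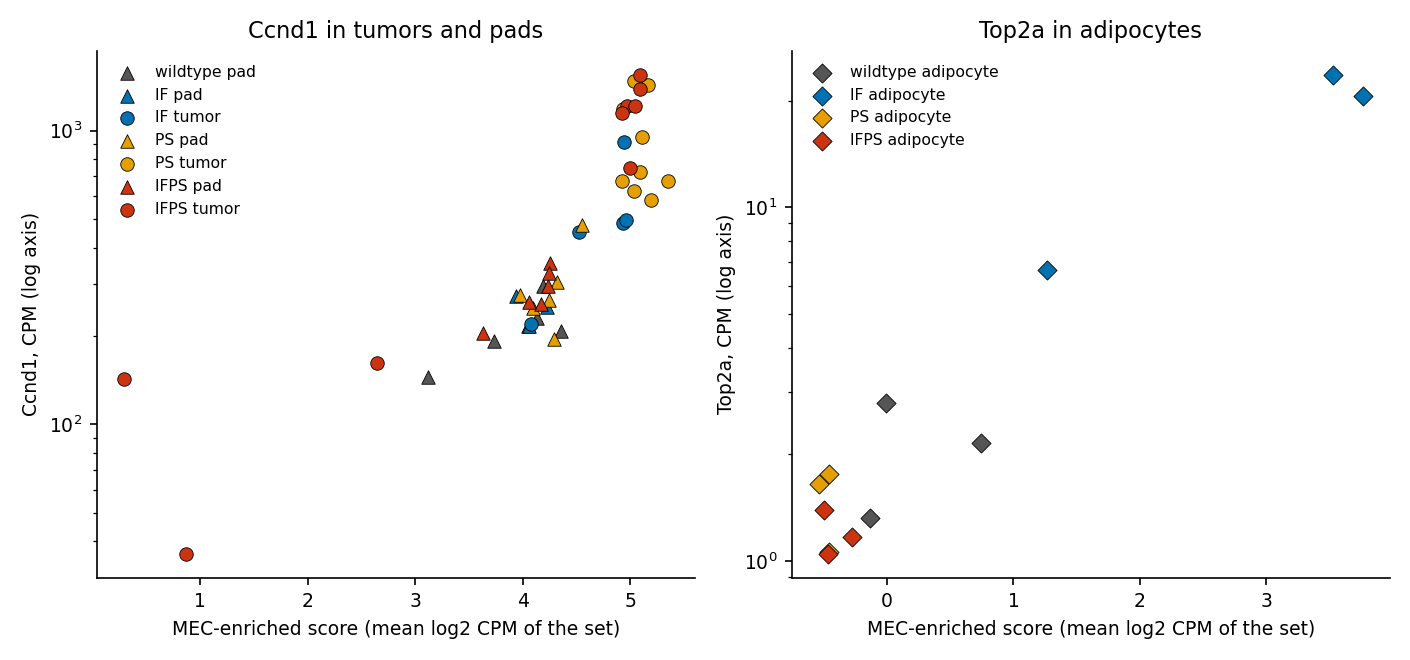
Left, Ccnd1 (CPM, log axis) against the MEC-enriched score (mean log2 CPM of its genes) in each tumor and pad; right, Top2a (CPM, log axis) against the same score in each adipocyte library. On the left 20 tumors lie at scores of 4.08 to 5.35 and 3 IFPS tumors under 3.12; on the right the 3 IF adipocyte libraries have the highest scores and the highest Top2a.

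Over the 19 group means of log2 CPM, Mki67, Top2a and Cdk1 followed each other with r of 0.990 to 0.994, Pcna followed them with r of 0.443 to 0.456, and Ccnd1 with 0.617 to 0.654. Of 14125 genes with a mean of at least 1 CPM, the identifiers nearest to the mean pattern of Mki67, Top2a and Cdk1 were ENSRNOG00000004682 (r = 0.998) and ENSRNOG00000013727 (r = 0.998), while Pcna ranked 3498 and Ccnd1 2072. Of 14127 genes, those nearest to Ccnd1 were ENSRNOG00000000520 (r = 0.969) and ENSRNOG00000002549 (r = 0.965), and Mki67 ranked 2323. These values describe the groups and carry no test. The files give no symbols for the 4 identifiers. RefSeq lists pseudogenes named after Mki67 (1), Cdk1 (1) and Pcna (3), none of its gene records overlaps the 5 genes, and how reads shared with such copies were counted is not given in the sources used here.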

How the data were processed

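RNA of 80 rat samples was sequenced after poly(A) selection (KAPA mRNA kit, paired-end reads of 50 bases, per the labels' protocols). The authors trimmed and aligned the reads with Trim Galore and STAR 2.5.2b to Rnor_6.0, per the submitters' processing notes, and deposited whole-number read counts per Ensembl identifier; the counting tool and its strand setting are not given in the sources used here. Of 32883 identifiers, 6365 had no count in any library, and no row was left out as naming no gene. Identifiers stand without symbols in the deposited table and 0 were matched to symbols by the RefSeq tables, so gene lists and cell type markers set for this work were not analysed here; the symbols of the 5 genes came with their selection.

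Counts were tested in R 4.3.3 with edgeR 4.0.16 (filterByExpr, TMM, quasi-likelihood test, Benjamini-Hochberg over all genes of a fit), with 1 fit per tissue, 1 of tumors and pads, 1 of tumors and MECs and 1 of the 57 normal libraries. The fits of pads and of the normal libraries have the title-number set of the pads (1 to 12 or 13 to 21) as a term; that of tumors and pads does not. CPM used TMM factors and, on the log2 scale, a prior count of 2. Relations across tumors used exact permutation tests. The scripts were tested on simulated data. The genes, lists and tests were chosen with earlier results of these data known. The text names the 5 genes and, over group means, the 2 identifiers most like each of 2 patterns. Same-numbered MEC and fibroblast libraries deviated together (r 0.116 to 0.312 in 12 of 12 pairs over 12432 genes), which was so in 1 of 12 MEC and adipocyte pairs and 5 of 12 fibroblast and adipocyte pairs, taking r over 0.1. Alternatives were RLE size factors, no filter on low counts, DESeq2 1.42.0, fits of the 2 groups compared, pads of 1 title-number set, a replicate block, and leaving out each library.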

Additional observations from a re-analysis of the deposited data

Results flagged for a closer look

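Within groups of 4 to 10 libraries, 30 combinations of gene and group were examined for a library that stands far from the rest. PS pad 2 was such a library for Top2a, at 205.1 CPM, against 103 to 124 CPM in the other 5 PS pads. The same pad was the highest PS pad for Mki67, at 221.4 CPM, and for Cdk1, at 47.6 CPM, which were not flagged. Chance gives about 1 in 20 such cases.

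Of 60 tests of whether a difference differs between groups (a line's difference from wildtype between cell types, or the tumor-pad change between lines), 10 passed with edgeR, all of the first kind. The IF difference in adipocytes minus that in MECs was 2.346 for Mki67, 3.437 for Top2a, 3.216 for Cdk1 and 0.541 for Pcna on the log2 scale. The IF difference in adipocytes minus that in fibroblasts was 2.861 for Mki67, 3.905 for Top2a, 3.402 for Cdk1, 0.544 for Pcna and 1.846 for Ccnd1. The IFPS difference in adipocytes minus that in fibroblasts was -1.588 for Top2a. The first 9 calls stayed with any library left out, except that of Pcna between adipocytes and fibroblasts, which was lost without wildtype fibroblast 3 (adjusted p = 0.0506). The last stayed in 17 of 57 such fits. The MEC-enriched and fibroblast-enriched scores of IF adipocytes, which moved with the first 9, are given with the adipocyte results.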

How the results depend on the processing

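Of 240 values, 76 passed, 55 of them under every alternative, and none of the 76 reversed; 44 values that did not pass changed sign somewhere and 31 passed somewhere. In fits of the 2 groups compared, line effects in MECs gave 2 calls in place of 4, in fibroblasts 13 in place of 16, in adipocytes 11 in place of 14, tumors against pads 1 in place of 2, and tumors against MECs 5 in place of 2. Tumors against pads gave 0 calls with pads 1 to 12 only and 0 with pads 13 to 21 only. Without the 3 IFPS tumors whose MEC-enriched score lay under that of every pad, chosen after seeing the data, tumors against pads gave 4 calls, tumors of different lines 1 in place of 0, and tumors against MECs 4. The pairing of MECs and fibroblasts entered as a replicate block on the title number: among these 24 libraries, chosen after seeing the data, line effects in fibroblasts minus in MECs gave 5 calls with the block and 3 without it, in place of 0, and the block over all 36 cell libraries gave 0. With 1 library left out, calls ranged from 1 (without IFPS MEC 2) to 6 (without wildtype MEC 2) for MECs, 10 to 14 for adipocytes (14 with all), 13 to 19 for fibroblasts (16 with all), 27 to 30 for normal tissues (28), 9 to 12 for differences between cell types (10), 1 (without IFPS tumor 1) to 3 (without IFPS tumor 4) for tumors against MECs, 2 to 2 for tumors against pads, 11 to 13 for relations (12), and 0 to 0 for pads, for tumors of different lines and for tumor-pad changes between lines. The shares of all genes called in these alternative fits are not given here, so the counts cannot be read as particular to these genes. The causes were not tested. Counts were few for Cdk1 in PS adipocytes, at 7 to 29 a library.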
